A study of Mus musculus with 18 samples.

Results

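The receptors for dopamine and noradrenaline were examined by their 9 genes, Drd1, Drd2, Drd5, Adra1a, Adra1b, Adra1d, Adra2a, Adra2c and Adrb1, which were taken by symbol from the 30905 genes of the series. All 9 genes had unique molecular identifiers (UMIs, each standing for 1 captured RNA molecule) in both brain regions. Dopamine and noradrenaline are released by small groups of midbrain and brainstem neurons whose axons reach the hippocampus (Hip) and the prefrontal cortex (PFC), where they tune attention, working memory, arousal and the storage of memories. Every receptor of the family is a G protein-coupled receptor. Drd1, Drd5 and Adrb1 act through the stimulatory G protein and raise cyclic AMP, Drd2, Adra2a and Adra2c act through the inhibitory G proteins and lower it, and Adra1a, Adra1b and Adra1d act through Gq and phospholipase C.

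Nuclei of frozen Hip and PFC were sequenced from 9 Kun Ming mice of 8 weeks, 3 in each of 3 groups. SPF mice were raised with a microbiota free of specific pathogens, GF mice were raised germ-free in isolators, and CGF mice were GF mice colonized by co-housing with SPF mice. Each mouse gave 1 library for each region, so that 18 libraries were compared and the mouse is the replicate. No genotype, transgene or drug separated the groups, and microbial status was the labelled difference between them.

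The libraries held 138000 nuclei after filtering. In PFC the GF libraries were deeper than the others, with 58877661 to 71320063 UMIs per library against 20070604 to 26168411 in SPF and 21886826 to 26005692 in CGF. In Hip they held 48289446 to 55733635 UMIs against 55521808 to 63063847 in SPF and 54476527 to 62291708 in CGF, and these ranges overlapped. The median UMIs per barcode in Hip ran from 4593 to 5809.5 in GF libraries, below the 6132 to 7054 of SPF. In CGF it was 5444.5 to 7559.5. The share of mitochondrial UMIs set GF apart in both regions: it was 0.359 to 0.594% in GF and 1.28 to 3.22% in the other PFC libraries, while in Hip it was 0.645 to 1.10% in GF and 0.0770 to 0.471% in the others. Gm42418, a gene that overlaps ribosomal RNA sequence, took 0.0118 to 0.0189% of UMIs in GF and 1.20 to 2.41% in the other PFC libraries, and 0.0230 to 0.0320% against 0.0575 to 0.172% in Hip. The labels name no batch. Depth, library quality, a batch that coincides with the GF group and the germ-free state cannot be told apart in these samples. Pairs of libraries shared 6 to 29 cell barcodes.

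Nuclei were clustered without the receptor genes, and clusters were named by marker lists as "-like" types, a suffix that is left out in what follows. The main types were 11 in Hip and 15 in PFC, with at least 20 nuclei in each of the 9 libraries. Of these, 8 were main types in both regions. Endothelial cells and fibroblasts also met that rule in both regions but were not taken as main types. The same holds for layer 6 corticothalamic neurons, near-projecting neurons and excitatory cluster 29 in Hip and for mural cells in PFC. A level is given as CPM, the unit in which the UMIs of a gene are scaled to all UMIs of that type in that library. Since the assay tags transcripts near their 3′ ends, levels were compared between types and samples within a gene, not between genes. Most genes of the family had few UMIs. Their sum over the libraries of a region ran from 750 for Adra2a to 15223 for Adra1a in Hip and from 92 for Drd5 to 21188 for Adra1a in PFC.

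Drd1 lies on chromosome 13 (54051183 to 54055705, minus strand, coordinates of GRCm38 throughout) and Drd2 on chromosome 9 (49340627 to 49408177, plus strand). Drd5, a gene of 1 exon, lies on chromosome 5 (38319367 to 38322518, plus strand) and overlaps the antisense gene Gm26560. Adra1a is on chromosome 14 (66635251 to 66771168, plus strand), Adra1b on chromosome 11 (43774606 to 43901210, minus strand) and Adra1d on chromosome 2 (131545850 to 131562283, minus strand), where it overlaps the antisense gene Gm14285. Adra2a is on chromosome 19 (54044151 to 54048982, plus strand), Adra2c on chromosome 5 (35278319 to 35281763, plus strand) and Adrb1 on chromosome 19 (56722199 to 56733113, plus strand). Whether the counting used strand is not given in the sources used here, so that reads of Drd5 and Adra1d cannot be told apart from those of their antisense partners if it did not.

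Drd1 is the main excitatory dopamine receptor of striatal and deep cortical neurons. Among the main PFC types its mean level was highest in the deepest cortical layer. In layer 6b neurons it was 15.8 CPM in the lowest, 29.2 CPM in the median and 55.8 CPM in the highest library, and 22.8% of these nuclei held a Drd1 UMI. In the PFC astrocyte clusters 6 and 13 the share was 0.134% and 0.988%, in nuclei with fewer UMIs. Near-projecting Tshz2 neurons followed with 13.4 ± 6.4 CPM (SD, n = 9). The step between them was 1.31 on the log2 scale, in 8 of 9 libraries, and did not pass (exact sign-flip test, adjusted p = 0.246). Outside these types, medium spiny cluster 24 held 79.6 CPM, interneuron cluster i27 28.6 CPM and claustral or insular cluster 26 23.9 CPM, against 42.6 CPM over the pooled layer 6b nuclei. The cluster values are pooled too, and their spread between libraries is not given here. The layer 6b level was 53.0 CPM or more in the GF libraries and 33.9 CPM or less in the others. Lower levels were found in layer 6 intratelencephalic neurons (11.2 ± 3.8 CPM), layer 6 corticothalamic neurons (8.80 ± 2.1 CPM) and Pvalb interneurons (7.19 ± 2.9 CPM). Upper-layer Cux2 neurons were lowest with 0.934 ± 0.58 CPM. Among the 11 types of Hip, Pvalb interneurons were highest, but at 4.23 ± 2.0 CPM they did not differ from Lamp5 interneurons at 3.09 ± 2.0 CPM beyond the spread between libraries (higher in 5 of 9 libraries). CA1 and CA3 pyramidal neurons held 0.550 ± 0.41 and 0.379 ± 0.30 CPM. Higher levels in the Hip libraries sat in excitatory clusters outside the main hippocampal types, among them cluster 35 with 313 nuclei and 40.1 CPM and cluster 44 with 211 nuclei and 39.3 CPM. Cluster 44 was led by Cdh18, Vwc2l, Arhgap6 and Tshz2, and the Hip libraries also held layer 6 corticothalamic, near-projecting and upper-layer neurons of cortical type.

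Drd5, the other receptor of the Drd1 class, was a hippocampal gene in these libraries. Its UMIs in Hip numbered 1004, of which dentate granule neurons held 340, and its level there was 3.09 ± 1.1 CPM. In PFC it had 92 UMIs in all, with 4 to 24 in a library, and its level was at most 1.78 ± 2.4 CPM, in layer 6b. Glial types of Hip held levels as high as those of granule neurons, with 5.48 ± 2.9 CPM in microglia, 3.75 ± 1.1 CPM in oligodendrocytes and 3.51 ± 2.2 CPM in astrocytes. The highest level in Hip, 6.88 CPM, was in an unnamed cluster of 2270 nuclei led by Hbb-bs, Ttr and Hba-a1, genes of blood and choroid plexus. The share of free RNA in these glial values was not tested.

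Drd2, the inhibitory dopamine receptor and target of antipsychotic drugs, was highest in interneurons among the main types. In Hip 49.0% of its UMIs were in interneurons and 39.8% in excitatory neurons, and in PFC 28.0% and 16.5%, with most of the rest in the medium spiny neurons described next. Sst interneurons of Hip held 6.99 CPM in the lowest, 12.0 CPM in the median and 17.5 CPM in the highest library and were above Lamp5 interneurons, at 4.19 ± 2.6 CPM, in 9 of 9 libraries (exact sign-flip test, adjusted p = 0.0439). No step of Hip passed where all types with 20 nuclei over the region were ordered, which adds pairs to the adjustment and changes the neighbours. The main excitatory types of Hip held at most 0.380 ± 0.33 CPM. In PFC, Sst interneurons held 9.68 ± 3.6 CPM, Lamp5 interneurons 6.67 ± 3.4 CPM and Vip interneurons 6.12 ± 3.7 CPM, and neighbours in this order did not pass. No step of any gene passed in PFC, so that this does not show equal levels. Smaller clusters of Hip were higher. The interneuron cluster led by Ano1, Zfhx3 and Ankfn1 held 40.1 CPM over its 334 pooled nuclei, and its spread between libraries is not given here. Among excitatory neurons, 504 nuclei of cluster 29, led by Trps1, Clmp and Trpc7 among the named genes, held 8.56 CPM in the lowest, 22.2 CPM in the median and 32.7 CPM in the highest library. In that cluster 22.0% of nuclei (exact 95% interval 18.5 to 25.9%) held a Drd2 UMI, against 0.183% of Hip astrocytes. The nuclei of cluster 29 were deeper, with a median of 2.47 times that of their library against 0.443 times in the astrocytes, and 30.6% of them were likely doublets.

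Striatal medium spiny neurons, which carry Drd1 in the direct and Drd2 in the indirect pathway of the basal ganglia, were present in 3 PFC libraries. Of 591 medium spiny nuclei, 275 were in library GF7, 182 in SPF30 and 124 in CGF19, while the other 6 PFC libraries held 0 to 4 each. These nuclei held 49.2% of all Drd2 UMIs and 11% of all Drd1 UMIs of PFC. In GF7 they held 66.7% of the Drd2 UMIs of the library, in SPF30 71.4% and in CGF19 43.7%. They came from 1 mouse in each group and do not enter the comparisons of types that follow.

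Nuclei with each receptor were counted in these 3 libraries. A Drd2 UMI was found in 30.9% of the nuclei in GF7 (exact 95% interval 25.5 to 36.7%), 40.1% in SPF30 (32.9 to 47.6%) and 18.5% in CGF19 (12.1 to 26.5%). Astrocytes of the same libraries, which serve as the background, gave 0.404%, 0.423% and 0 of 608 nuclei, which allows a share of up to 0.493%. The medium spiny nuclei were deeper than these astrocytes, with median totals of 5362, 2298.5 and 1440.5 UMIs against 2701, 967 and 964.5. A Drd1 UMI was found in 29.8%, 20.9% and 9.68% of medium spiny nuclei, against 1.35%, 0 of 473 (which allows up to 0.634%) and 0.164% of astrocytes. Of the 591 nuclei, 115 held Drd1 UMIs without Drd2, 166 held Drd2 without Drd1, 17 held both and 293 held neither. Those with both numbered 3 beside 79 with Drd1 alone and 82 with Drd2 alone in GF7, 10 beside 28 and 63 in SPF30, and 4 beside 8 and 19 in CGF19. Intervals and limits cover counting error only.

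Genes known to mark the 2 pathways differed between these nuclei too. Penk, the enkephalin precursor of the indirect pathway, stood at 532, 777 and 576 CPM in the nuclei with Drd2 alone of GF7, SPF30 and CGF19, against 63.9, 168 and 0 CPM in those with Drd1 alone. Adora2a, the adenosine receptor of the indirect pathway, stood at 178, 317 and 224 CPM with Drd2 alone and at 0, 36.0 and 0 CPM with Drd1 alone. Tac1, the substance P precursor of the direct pathway, was the reverse, with 299, 156 and 321 CPM with Drd1 alone against 51.4, 58.3 and 192 CPM with Drd2 alone. The Tac1 values of CGF19 rest on 5 UMIs with Drd1 alone and 6 with Drd2 alone. The direction was not tested over samples, since each group had 1 such library.

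**Figure D1:**
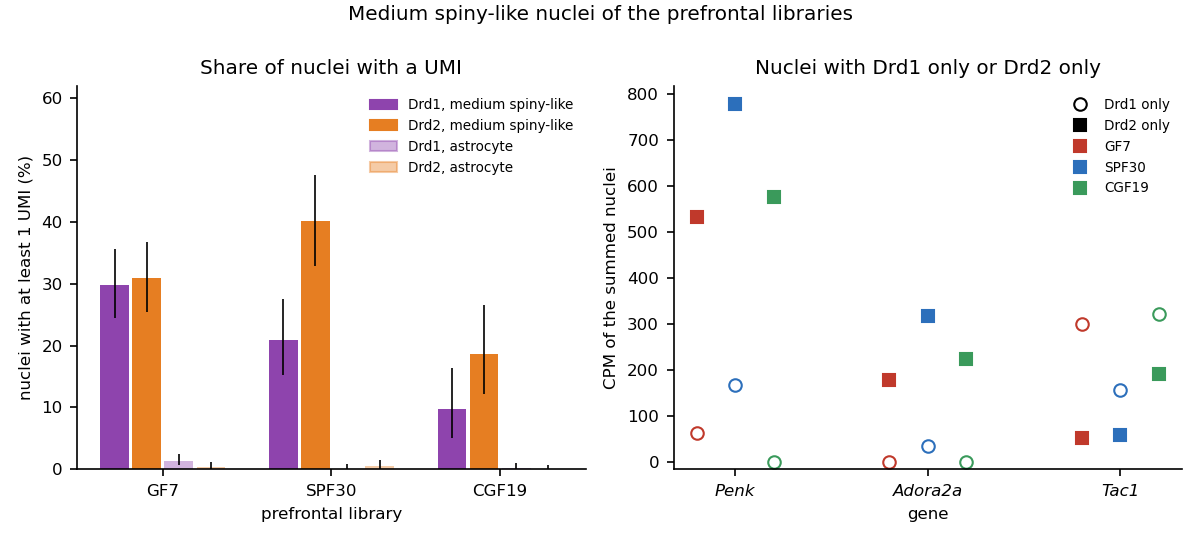
Left, share of medium spiny-like nuclei and of astrocytes with at least 1 UMI (%) of Drd1 or Drd2 in the 3 prefrontal libraries that hold them, with exact 95% binomial intervals. Right, CPM of Penk, Adora2a and Tac1 in summed nuclei with Drd1 only (open circles) or Drd2 only (filled squares), coloured by library: Penk and Adora2a lie higher with Drd2 in each library, and Tac1 lies higher with Drd1, on 5 and 6 UMIs in CGF19.

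Adra1a, an excitatory receptor of interneurons that raises their firing in response to noradrenaline, was the most counted gene of the family and reached its highest level in Lamp5 interneurons of both regions. Hip Lamp5 interneurons held 234 CPM in the lowest, 305 CPM in the median and 547 CPM in the highest library, with a mean of 350.1 ± 106 CPM, and 66.8% of these nuclei held an Adra1a UMI. PFC Lamp5 interneurons held 582, 685 and 868 CPM, with a mean of 703 ± 89 CPM and a UMI in 84.7% of nuclei. In Hip the next types were astrocytes (123 ± 25 CPM), Pvalb (103 ± 20 CPM), Vip (99.0 ± 19 CPM), oligodendrocyte precursors (OPCs, 94.2 ± 26 CPM) and Sst interneurons (89.4 ± 23 CPM). The steps from neighbour to neighbour among these did not pass, which does not show equal levels. Lamp5 interneurons were above astrocytes by 1.48 on the log2 scale, Sst interneurons above CA1 pyramidal neurons by 2.51, and CA1 pyramidal neurons above oligodendrocytes by 0.98 (each in 9 of 9 libraries, exact sign-flip test, adjusted p = 0.0439). CA3 pyramidal neurons were lowest with 2.19 ± 0.65 CPM.

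In PFC, Pvalb interneurons held 232 ± 16 CPM of Adra1a, Vip interneurons 156 ± 30 CPM, astrocytes 145 ± 35 CPM, layer 5 Fezf2 neurons 126 ± 13 CPM and OPCs 117 ± 47 CPM. The layer 5 neurons stood out among excitatory neurons, since layer 6 corticothalamic and near-projecting neurons held 64.0 ± 8.4 and 61.4 ± 13 CPM and the other excitatory types 27.2 CPM or less. Lamp5 exceeded Pvalb interneurons by 1.59 and Pvalb exceeded Vip interneurons by 0.59 on the log2 scale in 9 of 9 libraries. That is the smallest p the exact test allows with 9 mice (p = 0.00391), and over the 126 neighbour pairs of PFC it gave an adjusted p of 0.0984.

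Among the main types, Adra1b was highest in Vip interneurons, the cells that inhibit other interneurons. Their level was 111 CPM in the lowest, 132 CPM in the median and 178 CPM in the highest library of Hip, and 127, 166 and 194 CPM in PFC. Lamp5 interneurons followed with 33.5 ± 8.0 CPM in Hip and 73.4 ± 26 CPM in PFC. The step from Vip to Lamp5 was 2.03 on the log2 scale in Hip (9 of 9 libraries, exact sign-flip test, adjusted p = 0.0439) and 1.27 in PFC (9 of 9 libraries, adjusted p = 0.0984). Mid-layer Rorb neurons were the highest excitatory type with 25.1 ± 5.7 CPM, and all main excitatory types of Hip were at 1.03 CPM or less. Pooled fibroblasts held 38.4 CPM in Hip and 57.4 CPM in PFC. Of the Hip clusters, fibroblast cluster 43, with 236 nuclei, held 134 CPM, between the Vip clusters at 219 and 187 CPM and another Vip cluster at 99.1 CPM.

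Adra1d was counted mostly in excitatory neurons, which held 90.7% of its Hip UMIs and 89.1% of its PFC UMIs. For Adra1a the shares were 34.2% and 40.9%, with 35.4% and 40.5% in interneurons, and for Adra1b 27.5% and 60.4%, with 49.8% and 24.3% in interneurons. CA3 pyramidal neurons held 5.58 ± 1.0 CPM, above CA1 pyramidal neurons at 3.08 ± 0.51 CPM in 9 of 9 libraries, and dentate granule neurons at 3.00 ± 0.62 CPM were above Pvalb interneurons at 0.731 ± 1.0 CPM (exact sign-flip test, adjusted p = 0.0439 for each step). CA3 pyramidal neurons were thus first for Adra1d and last for Adra1a and Adra1b. In PFC, mid-layer Rorb neurons led with 6.92 ± 2.8 CPM, followed by near-projecting neurons with 4.43 ± 2.7 CPM and upper-layer Cux2 neurons with 3.35 ± 1.4 CPM.

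Adra2a, an inhibitory receptor of noradrenaline axon terminals and of prefrontal neurons, was low in every type. Among the main types it was highest in layer 6b neurons, from 35 UMIs in 483 nuclei. Its level there was 0 CPM in the lowest, 13.6 CPM in the median and 26.5 CPM in the highest library. Hip astrocytes held 4.81 ± 1.6 CPM, and pooled fibroblasts held 10.8 CPM in Hip and 9.33 CPM in PFC. By cluster, fibroblast cluster 22 of PFC held 16.3 CPM from 30 UMIs and endothelial cluster 35 held 11.7 CPM from 9 UMIs, against 10.9 CPM over the pooled layer 6b nuclei, and fibroblast cluster 24 of Hip held 13.8 CPM from 33 UMIs.

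Adra2c, the other inhibitory noradrenaline receptor, had no single leading type. In Hip its mean level was 11.2 ± 6.6 CPM in microglia, 9.93 ± 3.1 CPM in oligodendrocytes, 9.24 ± 2.2 CPM in astrocytes, 8.79 ± 6.3 CPM in OPCs, 6.84 ± 4.3 CPM in CA1 pyramidal neurons and 6.53 ± 3.7 CPM in dentate granule neurons. No step between neighbours in this order passed. The unnamed cluster led by Hbb-bs and Ttr held 23.1 CPM, the highest level in Hip, and its nuclei had a low median UMI count. In PFC the levels were 5.51 ± 5.9 CPM in microglia, 3.33 ± 1.7 CPM in layer 6 intratelencephalic neurons and 2.94 ± 1.6 CPM in upper-layer Cux2 neurons.

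Adrb1, the main stimulatory noradrenaline receptor of cortical neurons, was spread over neurons and glia. In PFC, upper-layer Cux2 neurons held 15.3 CPM in the lowest, 24.3 CPM in the median and 33.0 CPM in the highest library. Microglia followed with a mean of 19.98 ± 19 CPM. They held 35.8, 46.3 and 48.5 CPM in GF, 0, 14.8 and 9.41 CPM in SPF and 13.3, 0 and 11.5 CPM in CGF, from 80 UMIs in all, too few for a test. Layer 5 Fezf2 neurons held 19.4 ± 4.1 CPM, mid-layer Rorb neurons 19.3 ± 6.1 CPM and layer 6 intratelencephalic neurons 17.7 ± 5.8 CPM. In Hip, microglia (21.7 ± 5.2 CPM) and astrocytes (18.9 ± 3.2 CPM) were above Vip interneurons (14.8 ± 4.5 CPM), and CA3 pyramidal neurons were lowest (3.92 ± 1.5 CPM). Its neighbours in the order of levels did not pass in either region (exact sign-flip test). In PFC 5 of 126 steps reached the smallest p the test allows, where 10 were needed for it to pass. In Hip 8 of 90 steps reached it, where 8 were needed. Not passing does not show equal levels in either region. The stretch of 250 bases before the RefSeq start site of Adrb1 (GRCm38.p6, chr19:56721867-56722116, plus strand) is shown because Adrb1 differed between GF and SPF in more prefrontal cell types than any other gene of the family. Capitals mark a match to the GC box (GGGCGG, or CCGCCC on the other strand), whose first base lies 202 bases before the start site.
Adrb1, upstream of the start: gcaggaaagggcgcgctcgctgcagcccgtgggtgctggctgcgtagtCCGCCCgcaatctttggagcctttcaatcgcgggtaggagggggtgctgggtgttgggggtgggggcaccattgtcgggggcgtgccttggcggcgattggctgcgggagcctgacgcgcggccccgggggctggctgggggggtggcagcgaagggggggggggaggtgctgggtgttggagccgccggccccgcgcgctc
Of these bases 74% were G or C, against a median of 52.7% over the 32851 promoter windows of 300 bases in the RefSeq table, of which 35.7% held the motif. Of the family, 7 genes had a window in that table.

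**Figure D2:**
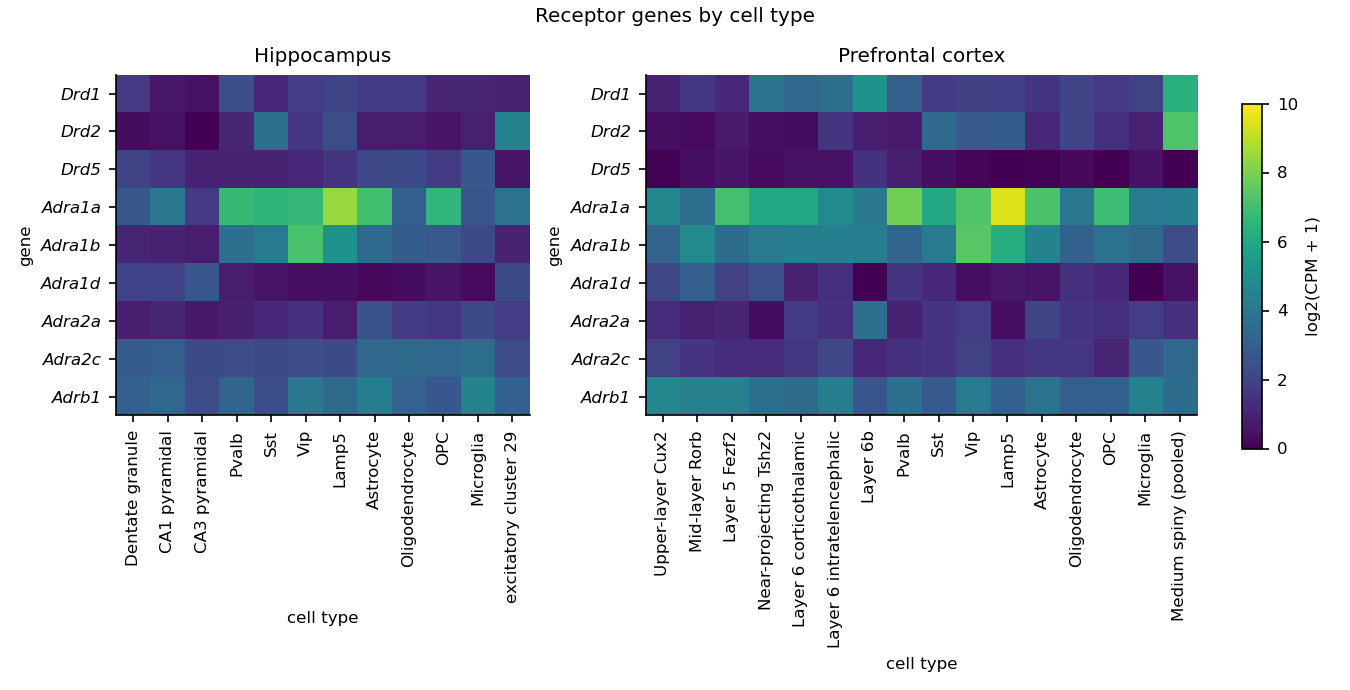
Level of the 9 receptor genes (rows) in the main cell types of each region (columns), with excitatory cluster 29 and the medium spiny-like type added. Values are log2(CPM + 1) of the mean CPM over 9 libraries, or of the pooled nuclei for the medium spiny-like type. Colours are to be read along a row: Adra1a is highest in Lamp5, Adra1b in Vip, Drd2 in medium spiny-like, excitatory cluster 29 and Sst, and Drd1 in medium spiny-like and layer 6b.

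Over the 26 types of both regions, the genes whose mean levels were most like those of a receptor were chosen by Pearson correlation among 10451 genes, as a description. For Drd2 they were Reln (r = 0.844), Dlx1 and Igf1, for Drd1 Nxph3 (r = 0.816), Cd47 and Myocd, and for Drd5 Atp6v1a (r = 0.868), Cabp7 and Cnih2. For Adra1a they were Gfpt2 (r = 0.833), Tex9 and Slc5a6, for Adra1b they included Gng4 (r = 0.855) and Resp18, and for Adra1d Slit3 (r = 0.790), Fbxo34 and Faah. For Adra2a they were Igfbp5 (r = 0.725), Arxes2 and Hmgcs1, for Adra2c Yipf5 (r = 0.912), Cnih2 and Ube2d3, and for Adrb1 Usp2 (r = 0.729), Sec14l1 and Stard8. All 26 points of a gene come from the same 18 libraries and share their depth.

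The next question was how the receptors differed with the microbiota. In Hip, Adra2c was higher in GF mice in principal neurons. In CA1 pyramidal neurons its level was 9.69, 12.3 and 14.8 CPM in the GF mice, 3.97, 4.73 and 5.29 CPM in the SPF mice and 2.65, 3.37 and 4.73 CPM in the CGF mice. Every GF mouse was above every other mouse. The log2 fold change was 1.23 (SE 0.217, edgeR quasi-likelihood test, adjusted p = 0.000508) against SPF and 1.57 (SE 0.223, adjusted p = 9.84e-05) against CGF. In dentate granule neurons the values were 10.0, 10.6 and 12.7 CPM in GF, 4.47, 4.31 and 6.38 CPM in SPF and 3.11, 2.54 and 4.65 CPM in CGF. The groups again did not overlap, with log2 fold changes of 1.01 (SE 0.218, adjusted p = 0.00226) and 1.49 (SE 0.227, adjusted p = 0.000185). In CA3 pyramidal neurons GF mice held 5.56, 6.29 and 7.17 CPM, which rose against CGF (log2 fold change 1.55, SE 0.397, adjusted p = 0.00419), while the value against SPF was 0.84 (adjusted p = 0.0645). These calls for CA1 and dentate neurons held under every alternative tried. Summed over the glial types, Adra2c stood at 12.5 to 14.0 CPM in GF, 7.35 to 11.7 CPM in SPF and 4.88 to 8.45 CPM in CGF libraries, so that GF did not overlap the others there either. Neither glial type tested passed: against SPF the log2 fold change was 0.34 in astrocytes (adjusted p = 0.399) and 0.41 in oligodendrocytes (adjusted p = 0.327), and against CGF 0.64 (adjusted p = 0.109) and 0.86 (adjusted p = 0.0564). The unnamed cluster led by Hbb-bs and Ttr drew 56.8% of its nuclei from GF libraries and held 30.6 CPM of Adra2c in GF, 20.3 CPM in SPF and 13.2 CPM in CGF. Its part in the Adra2c values of the neurons was not tested.

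Adra1a moved in opposite directions in interneurons of Hip. In Lamp5 interneurons it stood at 547, 353 and 506 CPM in GF against 348, 234 and 290 CPM in SPF and 291, 278 and 305 CPM in CGF, a rise of 0.63 (SE 0.149, adjusted p = 0.00416) and 0.56 (SE 0.150, adjusted p = 0.00783) on the log2 scale. The GF mice were above all others, and the call against CGF was lost without GF5 (0.42, adjusted p = 0.0583) and with nuclei gated one by one instead of by cluster (0.80, adjusted p = 0.084). In Sst interneurons, by contrast, it stood at 74.5, 57.6 and 68.4 CPM in GF, below all SPF mice with 104, 102 and 111 CPM, and fell by 0.80 (SE 0.171, adjusted p = 0.000804) on the log2 scale. Against the CGF mice, with 92.9, 70.0 and 124 CPM, it fell by 0.68 (SE 0.176, adjusted p = 0.00353), with overlap. Under that gating the fall against SPF was 0.62 (adjusted p = 0.0544) and the rise in Lamp5 interneurons against SPF 0.61 (adjusted p = 0.187).

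Few other pairs passed in Hip. Adra1b in oligodendrocytes stood at 0.866, 2.94 and 3.06 CPM in GF against 15.7, 10.7 and 8.76 CPM in SPF, from 8 UMIs in the GF mice, and at 5.87, 4.45 and 7.43 CPM in CGF. No GF library reached the count filter of this type (7.16 CPM), which the pair passed through SPF and CGF libraries, so that its levels are given as a description. Adrb1 in CA3 pyramidal neurons was 0.82 (SE 0.318, adjusted p = 0.0439) and Drd5 in dentate granule neurons 0.69 (SE 0.270, adjusted p = 0.0492) higher in GF than in CGF on the log2 scale. Each was lost under 10 of 15 alternatives. Leaving out any 1 of the CGF mice, SPF31, GF6 or GF7 ended the call for Adrb1 (0.66 to 0.88, adjusted p = 0.0531 to 0.159), and leaving out CGF17, CGF18, SPF31, GF5 or GF7 that for Drd5 (0.51 to 0.75, adjusted p = 0.0605 to 0.185). The dopamine receptors did not otherwise pass: Drd1 in dentate granule neurons was −0.27 (SE 0.262) and Drd2 in Sst interneurons 0.49 on the log2 scale against SPF.

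Counted over pairs of a receptor gene and a cell type, 41 of 99 pairs in Hip had enough UMIs to enter the fits. Of these, 5 (12.2%) passed between GF and SPF, 3 higher and 2 lower, where 35.6% of all tested pairs of a gene and a type passed and 19.1% passed with a higher level in GF. Between GF and CGF 7 pairs (17.1%) passed, 6 of them higher in GF, against 37% of all tested pairs and 19.7% higher in GF. Without the pairs that no library of 1 of the compared groups took past the count filter, such as Adra1b in oligodendrocytes, 4 of 38 (10.5%) passed against SPF and 7 of 37 (18.9%) against CGF. The share of receptor pairs was thus below that of all genes in both comparisons, which share the GF libraries. Here and in what follows, all tested genes were not matched to the receptors by count. These shares therefore do not compare the size of changes. With nuclei gated one by one, 12 of 48 pairs passed between GF and CGF, where 34.7% of all pairs did. The median log2 fold change of the receptor pairs was 0.11 against SPF and 0.07 against CGF, beside 0.0057 and 0.0056 over all tested pairs.

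**Figure D3:**
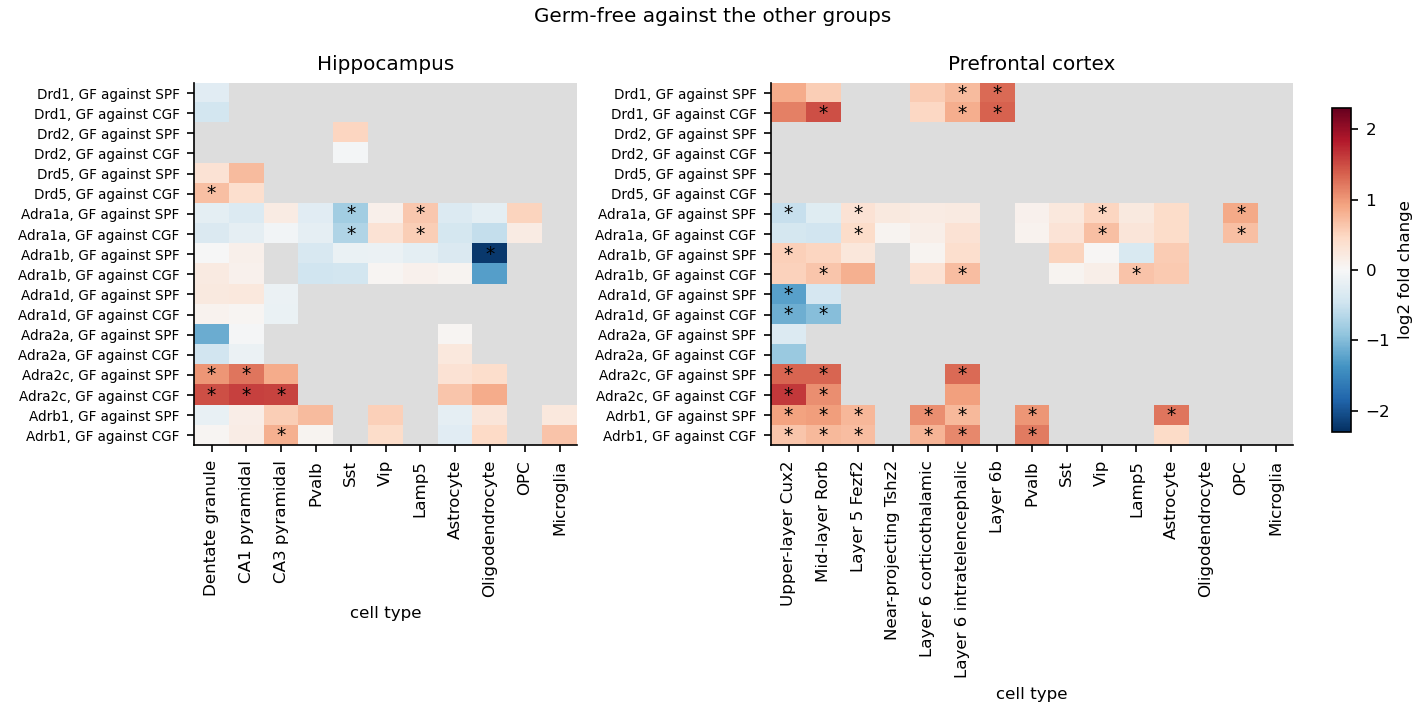
Log2 fold change of GF against SPF and of GF against CGF for each receptor gene (rows) and cell type (columns) in Hip and PFC, red where GF is higher. Grey marks pairs with too few UMIs to be tested and an asterisk an adjusted p under 0.05 (edgeR), given as a description for Adra1b in Hip oligodendrocytes and, in PFC, Drd1 in layer 6b (against both groups) and mid-layer Rorb neurons (against CGF) and Adra2c in layer 6 intratelencephalic neurons (against SPF), where a compared group had no library past the count filter. Adrb1 is red with asterisks over 7 prefrontal types against SPF, and Adra2c over dentate granule and CA1 pyramidal neurons of Hip.

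In PFC, Adrb1 was higher in GF than in SPF mice in each of the 7 types in which it could be tested, and higher than in CGF mice in 6 of the 7. Upper-layer Cux2 neurons held 33.0, 31.3 and 27.3 CPM in GF, 18.2, 20.2 and 15.3 CPM in SPF and 25.2, 17.6 and 24.3 CPM in CGF. The groups did not overlap, and the rise was 0.92 (SE 0.148, adjusted p = 9.16e-05) against SPF and 0.64 (SE 0.144, adjusted p = 0.00151) against CGF. In layer 5 Fezf2 neurons the values were 26.5, 23.1 and 22.9 CPM in GF, 19.95, 13.2 and 16.9 CPM in SPF and 18.3, 16.9 and 16.6 CPM in CGF, with rises of 0.77 (SE 0.200, adjusted p = 0.00298) and 0.71 (SE 0.198, adjusted p = 0.00517). In mid-layer Rorb neurons the rises were 0.97 (adjusted p = 0.00111) and 0.75 (adjusted p = 0.00622), in layer 6 corticothalamic neurons 1.06 (adjusted p = 0.00243) and 0.78 (adjusted p = 0.0195), and in layer 6 intratelencephalic neurons 0.74 (adjusted p = 0.00592) and 1.11 (adjusted p = 0.000349), the last of which was 0.72 with nuclei gated one by one. Against SPF the groups of Rorb and corticothalamic neurons did not overlap, and those of intratelencephalic neurons did. With libraries thinned to equal mean UMIs per nucleus, the rise in layer 5 neurons against CGF was lost (0.62, adjusted p = 0.0621), and so was that in intratelencephalic neurons against SPF (0.62, adjusted p = 0.0577). The latter was also lost without SPF32 (0.50, adjusted p = 0.067), and that in corticothalamic neurons against CGF without any 1 of CGF18, CGF19, GF5 and GF6 (0.63 to 0.72, adjusted p = 0.0515 to 0.0893).

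Outside excitatory neurons, Adrb1 in Pvalb interneurons stood at 20.5, 16.3 and 16.4 CPM in GF against 5.47, 10.4 and 11.5 CPM in SPF and 5.07, 7.25 and 12.5 CPM in CGF. It rose by 1.02 (SE 0.334, adjusted p = 0.0135) and 1.19 (SE 0.336, adjusted p = 0.00481) on the log2 scale, without overlap, and the call against SPF was lost without SPF30 (0.77, adjusted p = 0.0847) and was 0.67 with nuclei gated one by one. In astrocytes it stood at 15.8, 21.1 and 16.6 CPM in GF against 3.85, 3.61 and 13.4 CPM in SPF, a rise of 1.23 (SE 0.433, adjusted p = 0.0204) that was lost without SPF30, SPF31 or GF6 (0.90 to 1.11, adjusted p = 0.0605 to 0.123), with DESeq2 (1.28, adjusted p = 0.0526) and with nuclei gated one by one (0.71, adjusted p = 0.0693). Without SPF32 it was 2.28. The CGF astrocytes, with 13.8, 17.1 and 8.61 CPM, overlapped both. Summed over the glial types, Adrb1 stood at 19.96 to 20.8 CPM in GF, 2.12 to 10.1 CPM in SPF and 8.73 to 10.5 CPM in CGF libraries. Hippocampal Adrb1 did not pass between GF and SPF in any type tested. Summed over Hip neurons it stood at 8.25 to 9.27 CPM in GF, 6.54 to 7.46 CPM in SPF and 6.38 to 7.23 CPM in CGF libraries, without overlap of GF and the others, and these sums were not tested.

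Adra2c also rose in prefrontal GF neurons, from low levels, and its summed level in glia was higher as well. Upper-layer Cux2 neurons held 5.21, 5.03 and 4.36 CPM in GF, 3.30, 2.41 and 0.867 CPM in SPF and 1.43, 2.60 and 1.25 CPM in CGF. Each GF mouse was above each of the others, with rises of 1.33 (SE 0.355, adjusted p = 0.00487) and 1.62 (SE 0.362, adjusted p = 0.00145). In mid-layer Rorb neurons the rises were 1.34 (SE 0.401, adjusted p = 0.00941) and 1.07 (SE 0.390, adjusted p = 0.028). The first was lost without SPF31 (1.03, adjusted p = 0.0611) and the second without CGF18, CGF19, GF5 or GF7 (0.81 to 1.05, adjusted p = 0.0677 to 0.123) or with DESeq2 (1.08, adjusted p = 0.0605). With libraries thinned to equal mean UMIs per nucleus, both were lost (1.18 and 1.06, adjusted p = 0.0602 and 0.0852). Layer 6 intratelencephalic neurons held 3.72, 4.97 and 6.16 CPM in GF, 2.08, 2.51 and 2.24 CPM in SPF and 1.38, 4.95 and 1.93 CPM in CGF, given as a description, since no SPF library reached the count filter of this type (4.95 CPM). Summed over neurons, Adra2c stood at 3.44 to 3.95 CPM in GF, 1.27 to 1.70 CPM in SPF and 1.18 to 1.90 CPM in CGF libraries. Summed over glia it stood at 2.88 to 6.81 CPM in GF, 1.81 to 2.12 CPM in SPF and 0 to 0.873 CPM in CGF libraries, from 60 UMIs, again without overlap of GF and the others. The unnamed cluster 19 of PFC, led by Mgp, Nptxr and Hba-a1 and with 54.6% of its nuclei from GF, held 17.7 CPM in GF, 0 in SPF and 3.16 CPM in CGF, from 16 UMIs. Its part in the values of the neurons was not tested.

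Drd1 could be tested in 5 excitatory types of PFC. In layer 6 intratelencephalic neurons it rose by 0.74 (SE 0.286, adjusted p = 0.0347) against SPF and 0.84 (SE 0.297, adjusted p = 0.0213) against CGF, with overlap in both. The first was lost under 7 of 15 alternatives, among them DESeq2, thinned depth, gating nuclei one by one and leaving out SPF31, SPF32, GF5 or GF7 (0.55 to 0.73, adjusted p = 0.0699 to 0.168). The second was lost without CGF19 or GF7 (0.59 and 0.68, adjusted p = 0.12 and 0.0937). In layer 6 corticothalamic neurons, the deep-layer type with the most nuclei, the log2 fold change was 0.58 (SE 0.26, adjusted p = 0.0673) against SPF and 0.48 (SE 0.265, adjusted p = 0.134) against CGF. Mid-layer Rorb neurons held 2.75, 2.02 and 3.53 CPM in GF, 3.24, 1.23 and 2.12 CPM in SPF and 0.626, 1.62 and 1.08 CPM in CGF. No CGF library reached the count filter of this type (1.77 CPM), so that the levels against CGF are given as a description. Layer 6b neurons held 55.8, 53.0 and 54.3 CPM in GF, 33.9, 19.3 and 21 CPM in SPF and 15.8, 29.2 and 27.1 CPM in CGF, from 52, 14 and 40 UMIs in GF and 4 to 7 in each of the others. This pair reached the count filter through the GF libraries alone, so that it had to be higher in GF to be tested at all, and its levels are given as a description.

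**Figure D4:**
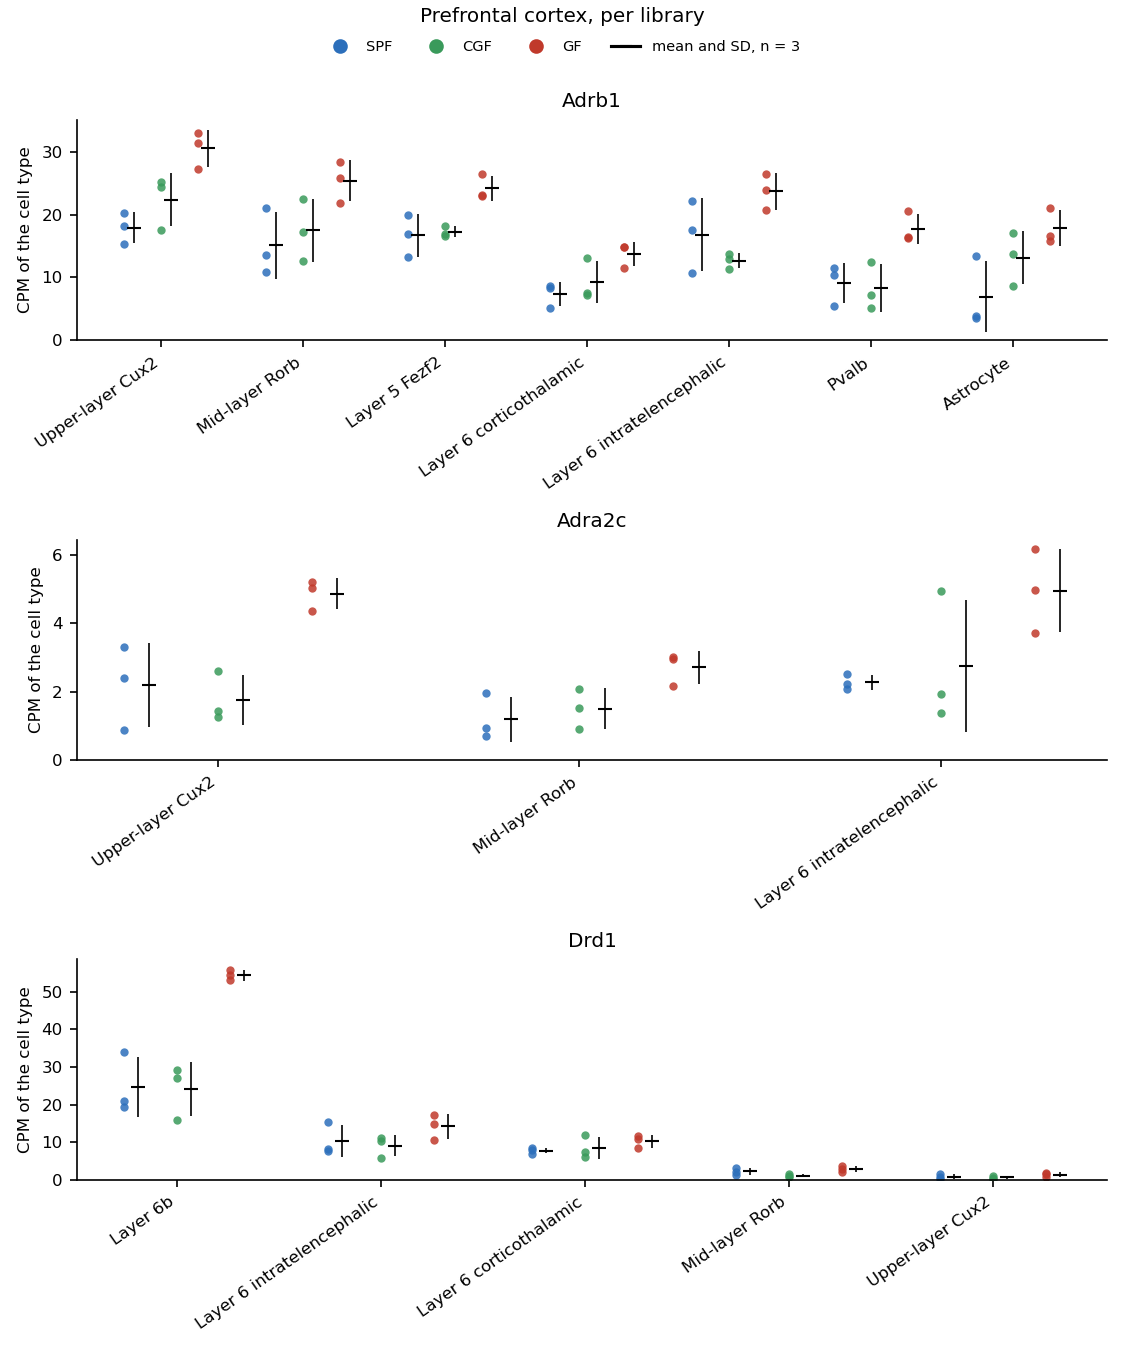
CPM of Adrb1, Adra2c and Drd1 in prefrontal cell types, 1 point per library, with the mean and SD of the 3 mice of a group as a bar. GF points lie above all SPF and CGF points for Adrb1 in upper-layer Cux2 neurons (27.3 CPM or more against 25.2 CPM or less), for Adra2c in the same neurons and for Drd1 in layer 6b neurons, a pair that passed the count filter through the GF libraries alone.

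Adra1d fell in prefrontal GF neurons. In upper-layer Cux2 neurons it stood at 1.76, 1.49 and 1.68 CPM in GF, 4.83, 5.09 and 3.12 CPM in SPF and 4.6, 3.82 and 3.76 CPM in CGF. All GF mice were below all others, and it fell by 1.24 (SE 0.267, adjusted p = 0.00107) and 1.12 (SE 0.268, adjusted p = 0.00242) on the log2 scale, under every alternative tried. In mid-layer Rorb neurons it fell by 0.98 (SE 0.227, adjusted p = 0.00168) against CGF, while the value against SPF was −0.38 (adjusted p = 0.175). Upper-layer neurons thus held more Adrb1 and Adra2c and less Adra1d in GF, and Adra1a was there at 22.6, 13.2 and 15.2 CPM in GF against 27.5, 31.2 and 22.5 CPM in SPF. That fall of 0.53 (SE 0.194, adjusted p = 0.0302) was lost without SPF30, SPF31, GF6 or GF7 (0.38 to 0.54, adjusted p = 0.0565 to 0.136) and thinned to equal mean UMIs per nucleus (0.48, adjusted p = 0.0649).

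Among the other Gq-coupled pairs of PFC, Adra1a in Vip interneurons stood at 190, 195 and 190 CPM in GF, 162, 139 and 144 CPM in SPF and 118, 144 and 121 CPM in CGF. The groups did not overlap, with rises of 0.49 (SE 0.157, adjusted p = 0.00919) and 0.69 (SE 0.160, adjusted p = 0.000479), the first of which was lost without SPF31 (0.43, adjusted p = 0.0664), and the second 0.45 with nuclei gated one by one. Adra1a in OPCs rose by 0.87 (SE 0.273, adjusted p = 0.0104) against SPF and 0.70 (SE 0.252, adjusted p = 0.0259) against CGF. The first was lost without SPF30, SPF32 or GF6 (0.56 to 0.82, adjusted p = 0.0582 to 0.128) and the second without GF6 or any CGF mouse (0.49 to 0.74, adjusted p = 0.0578 to 0.146), thinned to equal mean UMIs per nucleus (0.56, adjusted p = 0.12) or with DESeq2 (0.69, adjusted p = 0.11). In layer 5 Fezf2 neurons the change was 0.33 (SE 0.131, adjusted p = 0.0422) and 0.42 (SE 0.132, adjusted p = 0.0107). The first was lost without CGF17, SPF30, SPF31, GF6 or GF7 (0.21 to 0.37, adjusted p = 0.0534 to 0.238) and with DESeq2 (0.34, adjusted p = 0.0567). The second was lost without CGF19 (0.34, adjusted p = 0.0507) and was 0.66 with nuclei gated one by one. For Adra1b, upper-layer neurons passed against SPF with 0.55 (adjusted p = 0.0482), and Rorb (0.64, adjusted p = 0.0196), layer 6 intratelencephalic (0.72, adjusted p = 0.00809) and Lamp5 (0.66, adjusted p = 0.0443) neurons against CGF. Of these the Lamp5 call was lost under 12 of 15 alternatives, among them without CGF17, CGF19, SPF30, SPF32 or any GF mouse (0.45 to 0.72, adjusted p = 0.0508 to 0.238), and was 1.05 without CGF18. The upper-layer call was lost without CGF19, SPF30, SPF31 or any GF mouse (0.39 to 0.62, adjusted p = 0.053 to 0.185) and was 0.86 with libraries thinned to equal mean UMIs per nucleus, and the Rorb call without CGF17, CGF19 or GF7 (0.49 to 0.61, adjusted p = 0.0594 to 0.0938).

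In PFC 39 of 135 pairs had enough UMIs, with none for Drd2 and Drd5. Of these, 18 (46.2%) passed between GF and SPF, where 48.9% of all tested pairs passed. Higher in GF were 16 of 39 (41.0%), where 24.7% of all tested pairs were. Between GF and CGF 19 pairs (48.7%) passed against 48% of all, and 17 (43.6%) were higher in GF against 24.4%. Without the pairs that no library of 1 of the compared groups took past the count filter, 14 of 36 (38.9%) were higher than in SPF and 15 of 35 (42.9%) higher than in CGF. The median log2 fold change was 0.49 against SPF and 0.60 against CGF, beside 0.012 and 0.008 over all tested pairs. The count of pairs that passed against SPF was 10 of 34 where the libraries were thinned to equal mean UMIs per nucleus, and 11 without SPF31. The shares of all tested pairs under these settings are not given here, so that these counts cannot be set against all genes.

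Some prefrontal types were split between clusters by group. Of the upper-layer clusters, cluster 0 drew 3.28% of its 7468 nuclei from GF and cluster 2 drew 95.3% of its 4100, and of the Rorb clusters, cluster 4 drew 3.70%, cluster 12 96.5% and cluster 5 33.6%. In the Rorb cluster that the groups shared most evenly, Adrb1 stood at 29.2 CPM in GF, 16.5 CPM in SPF and 20.1 CPM in CGF, Adra2c at 2.20, 0.825 and 1.63 CPM and Adra1d at 4.09, 8.25 and 9.35 CPM. In upper-layer cluster 0, Adrb1 stood at 27.8, 17.96 and 22.0 CPM, Adra2c at 10.8, 2.17 and 1.83 CPM and Adra1d at 0.897, 4.46 and 4.10 CPM, while Adra1a stood at 26.5 CPM in GF, 27.3 CPM in SPF and 25.4 CPM in CGF. In the clusters drawn nearly all from 1 side the order was not always that of the whole type. In Rorb cluster 4, Adra1d stood at 6.58 CPM in GF, 5.79 CPM in SPF and 10.1 CPM in CGF, and Adrb1 at 26.3, 13.9 and 15.5 CPM. In upper-layer cluster 2, Adra1a stood at 15.9 CPM in GF, 36.5 CPM in SPF and 23.3 CPM in CGF, and Adrb1 at 30.4, 26.6 and 33.7 CPM, and in Rorb cluster 12 at 23.2 CPM in GF, 0 in SPF and 30.3 CPM in CGF. Drd1 stood at 1.88, 2.90 and 1.72 CPM in Rorb cluster 4 and at 3.76, 0 and 0 CPM in cluster 12. The part of cluster 12 outside GF was too small for a value of 0 to show absence. Astrocytes were split likewise. In cluster 6, with 7.07% of 3734 nuclei from GF, Adrb1 stood at 23.1 CPM in GF, 7.43 CPM in SPF and 13.5 CPM in CGF, and in cluster 13, with 95.3% of 1720 nuclei from GF, at 16.9, 14.7 and 8.41 CPM. Outside GF, the Adrb1 UMIs of cluster 13 came from SPF30 (43.7 CPM) and CGF19 (16.9 CPM) alone, with 0 CPM in the other libraries. These values were not tested. In clusters drawn nearly all from 1 side, the values of the other side rest on few nuclei.

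Colonization was examined by comparing CGF with SPF mice. No receptor pair passed in either region by edgeR (0 of 41 in Hip, 0 of 39 in PFC), where 0.604% and 0.202% of all tested pairs passed. At an unadjusted p under 0.05 there were 1 and 2 pairs, where 10.8% and 9.22% of all tested pairs were, and DESeq2 called 0 in each region. The pairs were Adra1b in Hip oligodendrocytes (−0.96, unadjusted p = 0.0192 by edgeR), Adra1b in PFC Lamp5 interneurons (−1.01, unadjusted p = 0.00106) and Adra1d in mid-layer Rorb neurons (0.60, unadjusted p = 0.0249). A pair that did not pass is not shown to be equal in CGF and SPF, and intervals are given for some of the genes that changed in GF. For Adrb1 in upper-layer neurons the log2 difference was 0.28 with a 95% interval from −0.02 to 0.59, and for Adra1a in Hip Sst interneurons −0.11 from −0.42 to 0.19. For Adra2c in CA1 pyramidal neurons it was −0.34 from −0.81 to 0.13 and in upper-layer neurons −0.29 from −1.14 to 0.57.

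The regions were compared within each group over the 8 main types shared by both, where 23 of 72 pairs had enough UMIs. Adra1a in Pvalb interneurons was lower in Hip than in PFC in all 3 groups. GF mice held 84.8, 95.1 and 116 CPM in Hip and 244, 233 and 215 CPM in PFC, SPF mice 105, 103 and 122 CPM against 234, 208 and 254 CPM, and CGF mice 90.3, 137 and 69.8 CPM against 238, 247 and 214 CPM. No Hip library reached any PFC library. The log2 differences of Hip against PFC were −1.20 (SE 0.153, adjusted p = 2.64e-06), −0.83 (SE 0.158, adjusted p = 6.85e-05) and −0.92 (SE 0.157, adjusted p = 1.44e-05). Each of these held under every alternative, and the one in SPF was −0.43 with nuclei gated one by one. Adra1a in Lamp5 interneurons was also lower in Hip in each group, with −0.65 (adjusted p = 0.00193), −1.05 (adjusted p = 5.24e-07) and −0.93 (adjusted p = 5.1e-06). Those 3 calls were lost where nuclei were gated one by one (−0.28, −0.13 and −0.49, adjusted p = 0.733, 0.736 and 0.188), and the first also without GF6 (−0.37, adjusted p = 0.308).

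Sst interneurons went the other way for Adra1a, and only outside the GF group did the difference pass. Hip Sst interneurons held 104, 102 and 111 CPM in SPF against 78.1, 48.6 and 62.7 CPM in PFC, a log2 difference of 0.97 (SE 0.189, adjusted p = 4.99e-05), and in CGF it was 0.92 (SE 0.201, adjusted p = 0.000214). In GF the Hip values of 74.5, 57.6 and 68.4 CPM overlapped the PFC values of 73.5, 54.0 and 83.2 CPM, with −0.10 (adjusted p = 0.883). The test of the difference itself, the effect of GF against SPF in Hip less that in PFC, gave −1.07 (SE 0.266, adjusted p = 0.00166) and held under 15 of 15 alternatives. Gating nuclei one by one ended the differences between regions in SPF and CGF (0.30 and 0.44, adjusted p = 0.281 and 0.105). In Vip interneurons Adra1a was lower in Hip in GF mice, with −0.78 (SE 0.156, adjusted p = 0.00113), and −1.19 with nuclei gated one by one. With the mouse as a block the same gene passed in CGF mice too, at −0.43 (adjusted p = 0.0498).

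**Figure D5:**
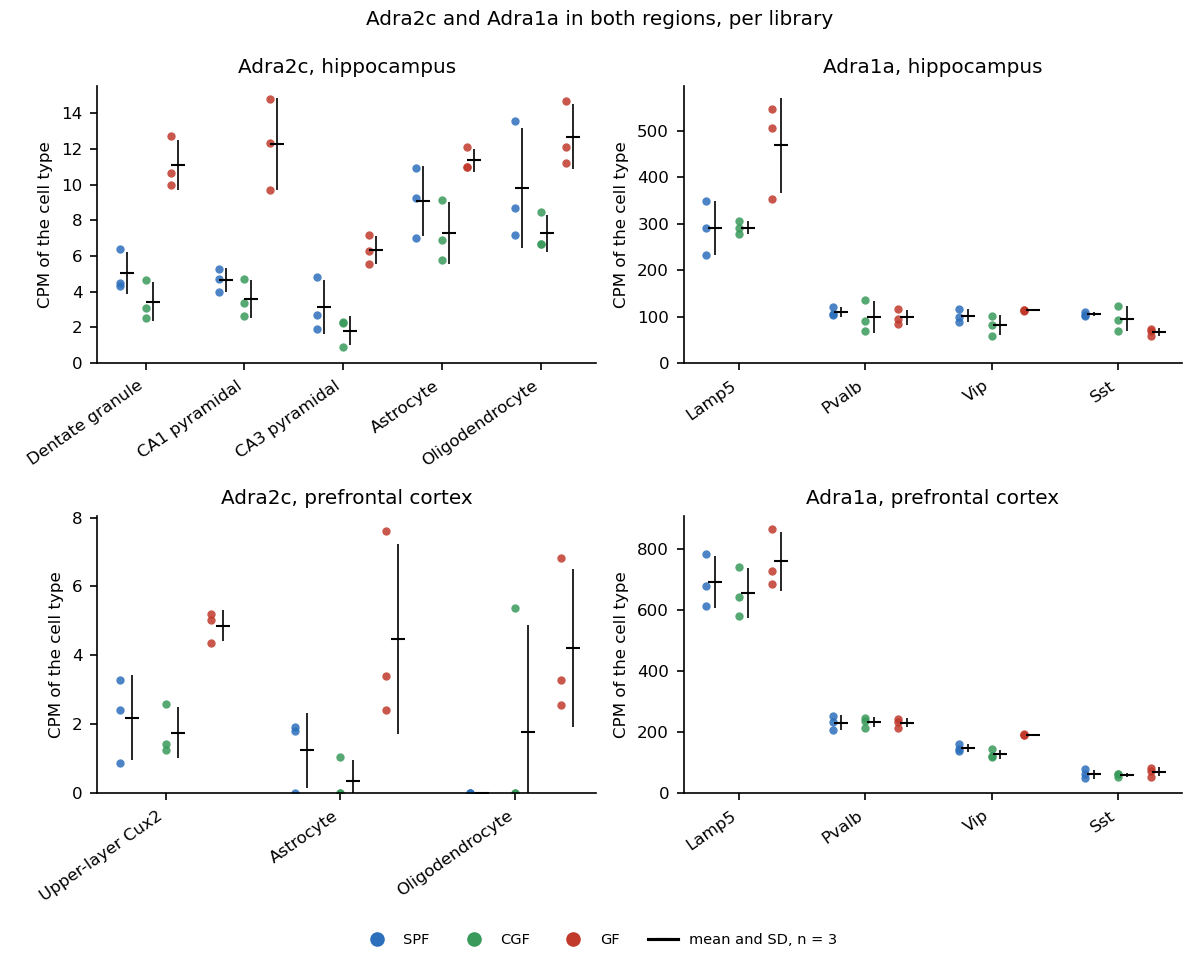
CPM of Adra2c and Adra1a in cell types of Hip (top) and PFC (bottom), 1 point per library, with the mean and SD of the 3 mice of a group as a bar. GF points of Adra2c lie above the others in Hip dentate granule and CA1 pyramidal neurons, and GF points of Adra1a lie lowest in Hip Sst interneurons apart from 1 CGF mouse at 70.0 CPM between them.

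The glial receptors also differed between regions. Adra2c in astrocytes stood at 7.02, 9.24 and 11 CPM in Hip of SPF mice and 1.92, 1.81 and 0 CPM in PFC, and at 6.90, 5.75 and 9.17 CPM against 1.06, 0 and 0 CPM in CGF mice. Pooled over the 3 mice of a group, the PFC values rest on 2 UMIs in SPF and 1 in CGF, which gives a ratio of 8.42 (exact 95% interval 2.22 to 71.2) and 16.9 (2.90 to 681), for counting error only. In oligodendrocytes of SPF mice 56 UMIs in Hip stood against 0 in PFC, at least 2.57-fold higher in Hip with 3 counts over the group as the floor. No PFC library of these groups reached the count filter of the type (6.58 CPM in astrocytes and 10.7 CPM in oligodendrocytes), which the pairs passed mainly through Hip libraries, so that these values are given as a description. Adrb1 in SPF astrocytes was 1.36 higher in Hip (SE 0.397, adjusted p = 0.00648), lost without SPF30 or SPF31 (1.09 and 0.95, adjusted p = 0.0677 and 0.111) but 2.53 without SPF32, and lost also thinned to equal mean UMIs per nucleus (1.13, adjusted p = 0.0506) and with nuclei gated one by one (0.57, adjusted p = 0.118). The test of the difference of GF against SPF between the regions gave −1.45 (SE 0.494, adjusted p = 0.029) for this pair. It was lost under 8 of 15 alternatives, among them without SPF30, SPF31, GF6 or GF7 (−1.04 to −1.40, adjusted p = 0.0698 to 0.179), and it was −2.62 without SPF32 (adjusted p = 0.00294). Adra1b in astrocytes was lower in Hip in GF mice (−1.62, SE 0.311, adjusted p = 0.00108) and in CGF mice (−1.06, SE 0.345, adjusted p = 0.0125), the second of which was lost without CGF17 or CGF18 (−0.98 and −0.94, adjusted p = 0.0843 and 0.097).

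Of the 23 pairs, 7 (30.4%) passed between regions in GF, all lower in Hip, where 4.2% of all tested pairs passed in this group. In SPF 8 pairs (34.8%) passed against 37.2% of all, and in CGF 6 pairs (26.1%) against 38.2%, split evenly between the directions in both. Without the pairs that no library of 1 of the regions took past the count filter in the group, 6 of 18 passed in GF, 5 of 13 in SPF and 5 of 14 in CGF. With nuclei gated one by one, 15 of 32 pairs passed in GF, 12 in SPF and 10 in CGF, where 6.74%, 43.8% and 44.2% of all pairs did, and 6 passed for the difference, where 27.3% did. For the difference of the GF effect between regions, 2 pairs (8.70%) passed against 23.5%, and 3 with the mouse as a block, the third being Adra1a in astrocytes (−0.72, adjusted p = 0.00738). In GF mice the Hip libraries held fewer UMIs than the PFC libraries, while in SPF and CGF mice the Hip libraries held more than 2 times the UMIs of the PFC libraries. Among GF mice the receptor pairs had a median log2 difference of −0.65 (0.0014 over all tested pairs), among SPF mice of −0.10 (0.058) and among CGF mice of 0.09 (0.024). The 7 pairs in GF were Adra1a in Pvalb, Lamp5 and Vip interneurons, astrocytes (−0.75, adjusted p = 0.0237) and oligodendrocytes, and Adra1b in Lamp5 interneurons (−1.04, adjusted p = 0.00255) and astrocytes. Without GF6 the count was 4. Adra1a in oligodendrocytes is given as a description, with 6.06, 6.62 and 4.08 CPM in Hip and 24.2, 8.19 and 14.8 CPM in PFC of GF mice, since no Hip library reached the count filter. The call for Adra1b in Lamp5 interneurons was lost without GF6 (−0.87, adjusted p = 0.115) and with nuclei gated one by one (−0.76, adjusted p = 0.247), and that for Adra1a in astrocytes without CGF18 (−0.72, adjusted p = 0.0522) or GF7 (−0.49, adjusted p = 0.393). Drd1 in Pvalb interneurons of SPF mice stood at 0.646, 3.85 and 5.43 CPM in Hip and 9.58, 12.7 and 5.73 CPM in PFC, a description too, since no Hip library of the group reached the filter (8.00 CPM). Adra1b passed in Lamp5 interneurons of SPF mice (−1.17, adjusted p = 0.000357), where Hip was lower, and was lost with nuclei gated one by one (−0.83, adjusted p = 0.0627). In Pvalb interneurons of CGF mice, where Hip was higher (1.25, adjusted p = 0.0353), it was lost without any 1 CGF mouse (1.12 to 1.46, adjusted p = 0.0843 to 0.139).

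The receptors act through shared signalling genes, which were counted in lists. Over all tested pairs, 24.2% passed lower in GF than in SPF in PFC and 16.5% in Hip, and the shares higher were 24.7% and 19.1%. Of adenylyl cyclases, which make cyclic AMP, 42 of 100 pairs (42%) fell and 5 rose in GF against SPF in PFC, and 40 of 79 (50.6%) fell and 0 rose in Hip. Adcy1 in Vip interneurons of PFC fell by 1.60 (adjusted p = 4.09e-10) and Adcy8 in CA3 pyramidal neurons by 1.73 (adjusted p = 0.00441) on the log2 scale. Genes of desensitization (G protein receptor kinases, arrestins and regulators of G protein signalling) were lower in 66 of 133 pairs and higher in 10 in PFC, led by Grk2 in layer 6b neurons, which fell by 2.47 (adjusted p = 7.46e-07). In Hip 30 of 104 were lower and 8 higher. Phospholipase C and protein kinase C genes, which carry the Gq signal, were lower in 36 of 57 pairs in Hip with none higher, led by Plcb4 in dentate granule neurons, which fell by 1.52 (adjusted p = 0.000444), and in PFC 21 of 76 were lower and 10 higher.

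G protein subunits were lower in 29 of 129 pairs (22.5%) and higher in 10 in PFC, a share lower that is near the one over all pairs, and lower in 22 of 103 (21.4%) and higher in 2 in Hip. Effectors of cyclic AMP and phosphodiesterases were split in PFC, with 49 of 210 pairs higher and 57 lower, where Ppp1r1b (DARPP-32) in Pvalb interneurons fell by 1.94 (adjusted p = 0.000127), and in Hip 44 of 157 were lower and 5 higher. The G protein-gated potassium channels that Drd2 and the Adra2 receptors open were higher in 15 of 41 pairs in PFC and lower in 3, with Kcnj3 in layer 5 Fezf2 neurons 1.05 higher (adjusted p = 0.00027), but lower in 12 of 33 in Hip with none higher. Genes for synthesis, transport and breakdown of catecholamines had 4 of 9 genes tested in PFC, of which 25 of 30 pairs were higher and 3 lower. Slc18a2, the vesicular monoamine transporter, rose by 4.03 (SE 0.507, adjusted p = 9.46e-06) in upper-layer neurons, and Maob in layer 5 neurons fell by 1.39 (adjusted p = 0.00921). Which groups took a pair of the signalling lists past the count filter was not examined, and levels of these genes are not given here. In Hip 6 of 30 pairs were higher and 3 lower. As shares of pairs passed, the lists ran from 23.3% to 63.2% in Hip and from 30.2% to 93.3% in PFC, beside 35.6% and 48.9% of all tested pairs. Between CGF and SPF 2 pairs of these lists passed in Hip, among them Plcb1 in astrocytes (0.78, adjusted p = 0.00891), and 0 in PFC.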

How the data were processed

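Raw UMI counts of 30905 genes per nucleus were deposited by the authors as 18 filtered matrices. The submitters' processing notes name CASAVA 1.8, Cell Ranger and mm10, and the file headers name software version 3.1.0. The kit version is given differently in the labels and in the design text. Nuclei with at least 200 genes and at most 10% mitochondrial UMIs were kept (1924 of 139924 barcodes removed). Counts were scaled to 10000 per nucleus and centred within each library, and 30 components of 2000 variable genes, without the receptor genes, were clustered (leidenalg 0.10.2, resolution 1, interneurons again at 1.5). Clusters were named by marker lists. Clusters with over 50% likely doublets were left unnamed, and single likely doublets were removed only as an alternative. The receptor genes, the marker lists and the signalling lists were chosen with earlier results of these data known.

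UMIs were summed per library and type and tested with edgeR 4.0.16 in R 4.3.3 (filterByExpr, TMM, robust quasi-likelihood fit, Benjamini-Hochberg adjustment over all genes of a fit, threshold 0.05), with 1 fit for each type over the 9 libraries of a region, or over the 18 libraries of both. The SE of a log2 fold change was taken from its size and the root of its F statistic. Levels of neighbouring types were compared with a two-sided exact permutation test that flips signs over the 9 mice, on log2(CPM + 1), adjusted over 90 pairs in Hip and 126 in PFC. Intervals of shares are exact (Clopper-Pearson, 95%), and a count of 0 was given a limit of 3 counts. They cover counting error only. The fits were tested on simulated counts with known changes. The mouse number pairs the regions because both samples came from the same animal. The correlation of deviations within a mouse ran from −0.02 to 0.25 (median 0.07) over 72 pairs of samples. The alternatives were DESeq2 1.42.0, no filter on low counts, libraries thinned to equal mean UMIs per nucleus of a type, likely doublets removed, nuclei gated one by one, the 6 libraries of the compared groups alone, each mouse left out, and the mouse as a block. The genes named beside the receptors were the 3 most correlated with each over types, among those with at least 20 CPM in a type, and the largest rise or fall that passed in each signalling list. Some genes that this rule gives are not reported here. Genes that lead a cluster, the pathway markers of medium spiny neurons and Hbb-bs and Ttr were named after their values were seen.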

Additional observations from a re-analysis of the deposited data

Results flagged for a closer look

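For 2 receptor pairs the effect of GF against SPF differed between Hip and PFC by the test of the difference itself. Adra1a in Sst interneurons gave −1.07 on the log2 scale (SE 0.266, edgeR quasi-likelihood test, adjusted p = 0.00166), with a lower level in all 3 GF mice than in all 3 SPF mice in Hip and overlap of these groups in PFC. Adrb1 in astrocytes gave −1.45 (SE 0.494, adjusted p = 0.029), with a log2 fold change of −0.21 in Hip and 1.23 in PFC. Over the alternatives the adjusted p of the first ran from 3.63e-05 to 0.0186 and that of the second from 0.00294 to 0.179. Leaving out SPF31 gave −1.04 for Adrb1 and leaving out SPF32 −2.62. GF libraries held more UMIs than SPF libraries in PFC, and their totals overlapped in Hip. Mean UMIs per nucleus did not overlap in Hip. Sst interneurons held 6470 to 7582.5 in GF and 9785 to 10087 in SPF, and astrocytes 2449 to 2495 and 2907 to 3428. In PFC the order was reversed, with 6829 to 7070 against 3112 to 3714 in Sst interneurons and 2677 to 2839 against 1099 to 1119 in astrocytes. Depth and the germ-free state cannot be told apart. With libraries thinned to equal mean UMIs per nucleus the values were −0.99 (adjusted p = 0.0186) and −1.39 (adjusted p = 0.108). Both regions come from the same mice, and with the mouse as a block Adra1a in astrocytes passed too (−0.72, adjusted p = 0.00738).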

How the results depend on the processing

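Of 72 calls of a receptor gene in a type, 30 held under every alternative tried, 42 were lost under at least 1 and 0 changed direction. Of 1057 values, 906 stayed past the threshold. Gating nuclei one by one ended 19 of 69 calls, DESeq2 13 of 72, thinning 12 of 59, no filter 5 of 72, removal of likely doublets 4 of 69, the 6 libraries alone 1 of 49, and leaving out a mouse 6 to 14. The cause was not tested.

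Gating nuclei one by one gave 12 calls between GF and CGF in Hip, 15 between regions in GF, 10 in CGF and 6 for the difference between regions. Thinning gave 10 between GF and SPF in PFC and 4 between regions in SPF, where fewer pairs could be tested. Apart from gating, the share of all tested pairs is not given for the settings of this paragraph. Those counts cannot be set against all genes. With no filter there were 29 calls between GF and CGF in PFC and 4 for the difference between regions, which had 1 with DESeq2 and 1 with likely doublets removed. Leaving out a mouse gave 5 to 7 calls between GF and SPF in Hip, 5 to 9 between GF and CGF in Hip, 11 to 20 between GF and SPF in PFC (11 without SPF31), 15 to 22 between GF and CGF in PFC, 0 to 1 between CGF and SPF in PFC (1 without CGF18), 4 to 7 between regions in GF (4 without GF6), 6 to 8 in SPF, 4 to 7 in CGF and 1 to 4 for the difference between regions (1 without SPF30, SPF31 or GF7, 4 without GF5). With the mouse as a replicate block there were 8, 7 and 7 calls between regions in GF, SPF and CGF and 3 for the difference. The block gained Adra1a in Vip interneurons of CGF, Adra2c in astrocytes of GF (1.29, adjusted p = 0.0457) and Adra1a in astrocytes for the difference (−0.72, adjusted p = 0.00738), and lost Drd1 in Pvalb interneurons of SPF (−1.26, adjusted p = 0.0581). It changed no other call.

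The 8 steps that passed in the Hip order of levels were 0 of 180 where all types with 20 nuclei over the region were ordered. That order adjusts over more pairs and has other neighbours, so that it does not test the same steps. The 8 steps were also 0 to 0 without 1 mouse, where a step cannot pass unless 15 pairs reach the smallest p, so that this says nothing of stability. Of the family, 41 of 99 pairs in Hip and 39 of 135 in PFC had enough UMIs to be tested. Calls of pairs that are given above as a description are in these counts.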
